A study of Mus musculus with 6 samples.

Results

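Peaks of accessible chromatin whose nearest annotated gene is a microRNA gene were compared between wildtype and Rroid-deficient natural killer (NK) cells. The members were every peak whose nearest-gene name began with Mir followed by a digit or by let7. They numbered 1645 of the 51775 peaks in the deposited table and were nearest to 531 named genes, 3 of which are host transcripts of a microRNA and not the microRNA itself. The assay was ATAC-seq, which reads open chromatin from the sites where a transposase can insert sequencing adapters. The cells came from the spleen of C57BL6 mice and were sorted as NK1.1+ NKp46+ cells without CD3 and CD5. Each genotype, wildtype or Rroid deficient, was represented by 3 libraries, and the labels give 50000 cells used for transposition for each sample. The sources used here give neither the age of the mice nor any treatment, and they do not describe the change made at the Rroid locus. The labels do not tie the 3 libraries of each genotype to different mice, and p-values then reflect only how far these libraries spread, which may be technical.

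MicroRNAs are short RNAs that pair with messenger RNAs through a seed near their 5′ end and lower the amount of protein made from them. A long primary transcript is cut by Drosha with Dgcr8 in the nucleus and by Dicer in the cytoplasm, and the mature strand is carried by an Argonaute protein. Loss of this pathway impairs NK cell survival and function, and miR-150, miR-155, miR-181 and miR-15/16 are known regulators of NK cell development or activation. The Rroid locus makes a long noncoding RNA and neighbours Id2, a gene that NK cells need. Many microRNA genes lie inside the introns of protein-coding genes, and some primary transcripts start many kilobases from the mature sequence. The nearest gene is therefore only an assignment by distance, and ATAC-seq does not measure the microRNA.

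The mature sequences below belong to the loci on which the results turn and are shown because members of a family share a seed, in capitals (bases 2 to 8), while their peaks lie on different chromosomes. They were taken from RefSeq, whose microRNA table held 483 of the 531 genes by gene ID. The miR-29 sequences head the list because their locus had the most lower peaks among the immune microRNAs, and the miR-181 and let-7 families follow with members at several loci.
miR-29a-3p: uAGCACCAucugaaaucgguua
miR-29b-3p: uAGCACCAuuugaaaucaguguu
miR-29c-3p: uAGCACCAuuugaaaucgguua
miR-146a-5p: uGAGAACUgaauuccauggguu
miR-21a-5p: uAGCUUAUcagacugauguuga
miR-148a-3p: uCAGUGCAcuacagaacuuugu
miR-181a-5p: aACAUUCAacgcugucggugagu
miR-181b-5p: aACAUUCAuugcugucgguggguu
miR-181c-5p: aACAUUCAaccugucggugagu
let-7d-5p: aGAGGUAGuagguugcauaguu
let-7g-5p: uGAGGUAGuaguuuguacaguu
let-7i-5p: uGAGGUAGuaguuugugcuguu
miR-31-5p: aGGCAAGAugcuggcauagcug
miR-16-5p: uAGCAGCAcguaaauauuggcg
miR-10a-5p: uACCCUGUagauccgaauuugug
miR-99b-5p: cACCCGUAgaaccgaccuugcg
miR-129-5p: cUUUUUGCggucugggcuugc

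Of the 1645 peaks, 223 were higher and 213 lower in Rroid-deficient cells, and 1209 were not called (limma, Benjamini-Hochberg adjusted p under 0.05 over all peaks). Over all 51775 peaks 25.8% were called, 13.8% higher and 12.1% lower, and the microRNA peaks stood at 13.6% and 12.9%. These shares are near the background and are no result about microRNA peaks as a class. The median log2 fold change was -0.02 over the microRNA peaks and -0.01 over all peaks. At least 2-fold differences were found at 77 of the higher and 30 of the lower peaks. These counts have no background over all peaks beside them and are no result about microRNA peaks. Higher and lower calls also differed in peak height. Under the median level of the microRNA peaks 99 were higher and 46 lower, and at or above it 124 and 167. Of all peaks under that level, 14.4% were higher and 5.88% lower, against 13.3% and 16.9% at or above it. The libraries of the genotypes did not overlap at 677 microRNA peaks (41.2%), against 40.1% of all peaks. Without wildtype library 2 the lower count was 139, and without Rroid-deficient libraries 4 and 6 together the counts were 111 and 131.

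**Figure D1:**
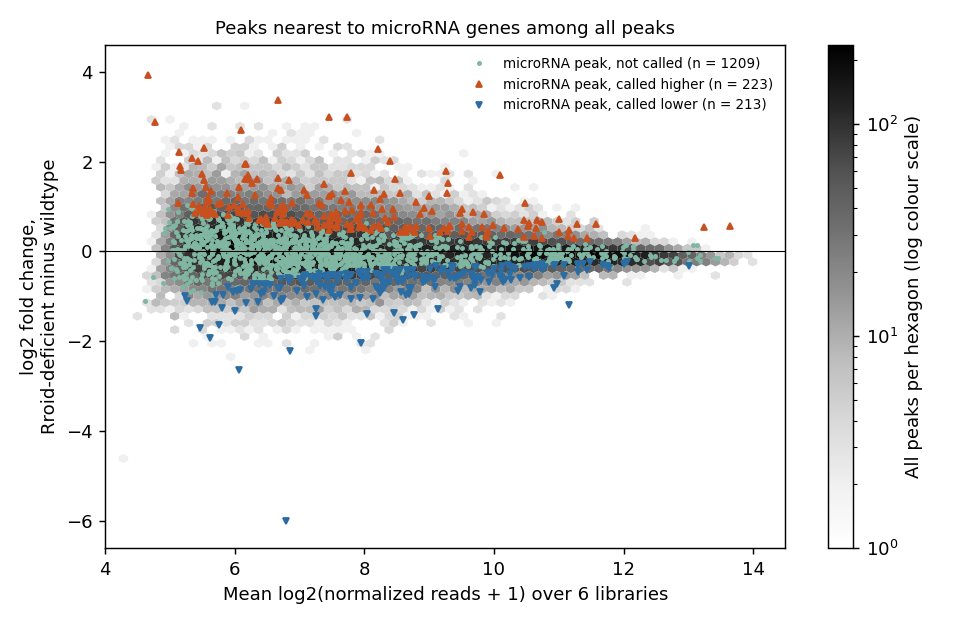
Log2 fold change (Rroid-deficient minus wildtype) against mean log2(normalized reads + 1) over 6 libraries, with each microRNA peak as a coloured symbol over all peaks, whose density is in grey. The 223 higher microRNA peaks reach up to 3.93, and the 213 lower ones reach down to -6.00, at 1 peak near Mir129-1.

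Values are normalized reads per peak, with errors as SD over n = 3 libraries, and log2 fold changes are on log2(value + 1) with their standard error (SE). Wildtype libraries are numbered 1 to 3 and Rroid-deficient libraries 4 to 6, as in the table. They held 27572006 to 47939665 reads in peaks, with 151 to 224 reads at the median peak, and Rroid-deficient libraries 4 and 6 were the shallowest. Of 11 NK cell markers 10 had a peak within 1 kb of the start site, and their summed value was 24524 to 27982 in wildtype and 19408 to 23284 in Rroid-deficient libraries, with 6 of the 10 peaks called lower. Start-site peaks were found for 3 of 9 T cell, 3 of 8 B cell, 1 of 9 myeloid and 1 of 7 erythroid marker names. Adgre1 and Emr1 name the same myeloid gene. The summed values ranged from 2367 to 2485, 225 to 280, 251 to 314 and 128 to 236 in wildtype libraries. In Rroid-deficient libraries they ranged from 2493 to 2649, 266 to 363, 246 to 293 and 168 to 196. The T cell peaks were those of Cd28, Cd3g and Cd5, of which 2 were higher, and no marker peak was at 0 in any library. The Cd3g peak held 58.7 ± 5.84 in wildtype and 353 ± 33.5 in Rroid-deficient libraries, in cells sorted without CD3. The Cd5 peak held 64.5 ± 47.2 and 130 ± 11.8, with overlapping groups. The Cd28 peak, which made up most of the T cell sums, went the other way without a call (2315 ± 106 and 2105 ± 43.9). The part of these shifts in the results below was not tested. In bulk libraries a lower value from fewer cells with an open site cannot be told apart from a less open site in every cell.

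Among 79 listed names of microRNAs with known roles in immune cells, some of them synonyms or host transcripts, 36 had peaks. Of their 94 peaks, 17 were higher, 15 were lower and 62 were not called. The shares of 18.1% and 16.0% stood beside 13.8% and 12.1% of all peaks. That comparison is not matched for peak height. The wildtype median was 236 at these peaks and 150 over all microRNA peaks. At or above the median level of the microRNA peaks, 13.3% of all peaks were higher and 16.9% lower. Mir146, Mir21a, Mir181a-1, Mir181b-1, Mir150 and Mir31 had only higher calls, and Mir29a, Mir29b-1, Mir29c, Mir10a, Mir16-1, Mir99b and Mir26b only lower ones. Mir148a and Mir222 had calls in both directions, and 21 genes had none. The lower count was 6 without Rroid-deficient libraries 4 and 6.

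The locus of Mir29a and Mir29b-1 on chromosome 6 was less accessible in Rroid-deficient cells. The miR-29 family represses T-bet, Eomes and interferon gamma in T cells. Of the 12 peaks of the locus 8 were lower and none was higher. The strongest peak, chr6:31062715-31065533 (mm9, intergenic), lay 51031 bp upstream of the Mir29b-1 start site. It held 3296, 3695 and 3423 in the wildtype and 1429.6, 1495 and 1632 in the Rroid-deficient libraries. Every Rroid-deficient library lay far under every wildtype library. The means were 3471 ± 204 and 1519 ± 103, a value of 43.8% of wildtype (log2 fold change -1.19, SE 0.09, limma adjusted p = 6.25e-08).

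Nearer to the gene, chr6:31027341-31031792, 16473 bp upstream, held 2735, 2573 and 2416 in wildtype and 1322, 1533 and 1548 in Rroid-deficient libraries. The groups were again apart, at 2575 ± 159 and 1467 ± 126 (log2 fold change -0.81, SE 0.09, limma adjusted p = 7.35e-06). The peak 67612 bp upstream fell from 1105 ± 18.5 to 712 ± 51.1 (limma adjusted p = 0.000201), and that 22420 bp upstream from 624 ± 79.8 to 399 ± 45.5 (limma adjusted p = 0.00184). The low peak 71289 bp upstream fell from 119.6 ± 19.6 to 62.9 ± 4.15 (limma adjusted p = 0.00592). These 5 peaks kept their call without any 1 library. The fall did not extend to every element of the upstream region. The peak 63044 bp upstream, between lower ones, held 2528, 2556 and 2196 against 2273, 2883 and 2482, with overlapping groups (2426 ± 200.3 and 2546 ± 310.2, limma adjusted p = 0.667).

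The remaining called peaks of the locus differed less. The peak 9691 bp upstream stood at 2174 ± 89.8 in wildtype and 1730.4 ± 159 in Rroid-deficient libraries, with no overlap. Its adjusted p by limma of 0.0131 became 0.0599 when wildtype library 2 was left out and 0.0990 when Rroid-deficient library 6 was. The peak 37496 bp upstream (743 ± 125 and 529 ± 22.9, limma adjusted p = 0.0107) was at 0.0530 without wildtype library 1. The peak 46062 bp downstream (287 ± 37.6 and 209 ± 16.8, limma adjusted p = 0.0390) lost its call without each library but wildtype library 3, with adjusted p from 0.0560 to 0.193. The locus kept 6 to 8 lower peaks when any 1 library was left out and 4 without Rroid-deficient libraries 4 and 6.

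**Figure D2:**
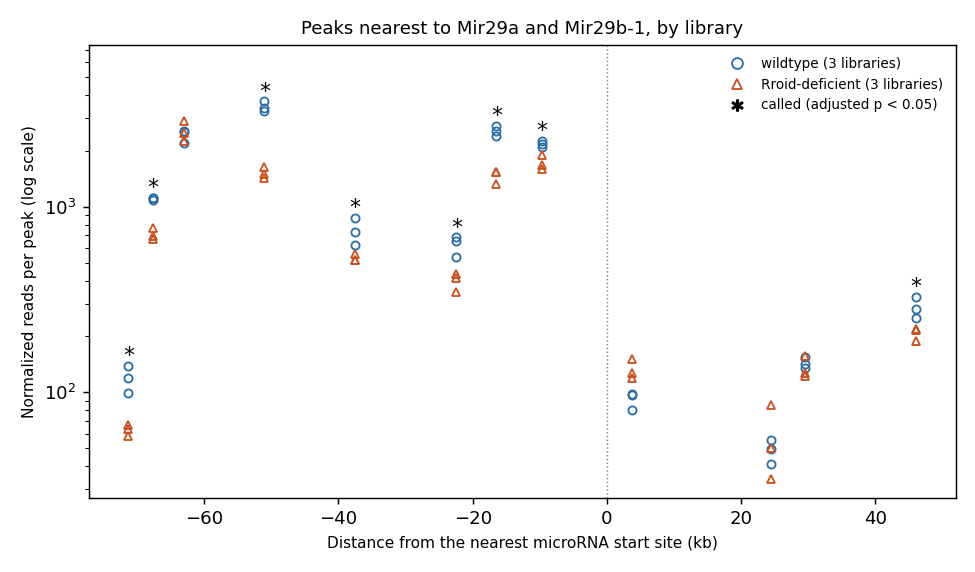
Normalized reads per peak (log axis) at the 12 peaks nearest to Mir29a and Mir29b-1 against distance from the nearest microRNA start site in kb, with negative values upstream, each symbol 1 library and a star over each called peak. At the tallest called peak, 51031 bp upstream, the wildtype libraries sit between 3296 and 3695 and the Rroid-deficient libraries between 1429.6 and 1632.

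The other locus with this seed, Mir29b-2 and Mir29c on chromosome 1, had 1 called peak of 2. It lay 3079 bp downstream of the Mir29c start site and held 204, 196 and 246 in wildtype and 143, 135 and 169 in Rroid-deficient libraries. The groups did not overlap (215 ± 27.0 and 149 ± 17.8, limma adjusted p = 0.0321). Its adjusted p rose to between 0.0517 and 0.134 without wildtype library 2 or 3 or Rroid-deficient library 4 or 5. In all, 9 of the 14 peaks nearest to a gene with the seed AGCACCA were lower and none was higher, against 12.1% and 13.8% of all peaks, and 8 of the 9 belonged to the locus of Mir29a and Mir29b-1.

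The let-7 microRNAs restrain growth and differentiation programmes, and Lin28 proteins block their maturation. Of 12 listed let-7 genes 7 had peaks. Of their 21 peaks 2 were higher (9.52%), 5 lower (23.8%) and 14 not called, against 13.8% and 12.1% of all peaks. These peaks too were taller than the microRNA peaks as a whole, at a wildtype median of 231 against 150. The clearest difference was at Mirlet7g, whose only peak (chr9:106079934-106080756, annotated as its promoter) held 578, 582 and 524 in wildtype and 267, 314 and 278 in Rroid-deficient libraries. Every Rroid-deficient library was lower (561 ± 32.7 and 286 ± 24.8, log2 fold change -0.97, SE 0.13, limma adjusted p = 2.91e-05). Near Mirlet7d, the peak 10432 bp downstream held 489, 349 and 426 against 155, 246 and 273. All Rroid-deficient values were again lower (421 ± 69.8 and 225 ± 61.8, log2 fold change -0.93, SE 0.19, limma adjusted p = 0.00160). The Mirlet7i promoter peak, the tallest of its 7, overlapped between the groups, at 2783 ± 168 and 2787 ± 123 (limma adjusted p = 0.984). Around it 2 low peaks were called higher, inside Ppm1h, and 2 lower, and each of the 4 lost its call without at least 2 of the 6 libraries, with adjusted p of 0.0540 to 0.174. The call near Mirlet7c-2 (946 ± 119 and 742 ± 89.1, overlapping groups, limma adjusted p = 0.0438) was lost at 0.0817 to 0.217 without wildtype library 1 or 2 or Rroid-deficient library 4 or 6.

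Lower calls elsewhere among the immune microRNAs were isolated peaks. Mir10a lies in a Hox cluster, and the peak 2320 bp upstream of it held 394, 429 and 319 in wildtype and 184, 266 and 213 in Rroid-deficient libraries. The groups were apart (381 ± 56.2 and 221 ± 41.2, limma adjusted p = 0.00184, and 0.129 without Rroid-deficient libraries 4 and 6). Mir16-1 belongs to the miR-15/16 family, which limits the cell cycle. Its only peak, in an intron of the host transcript Dleu2, held 229.7, 220.1 and 174 against 121, 117 and 123. The Rroid-deficient libraries were close together and all lower (208 ± 29.9 and 120.4 ± 3.13, limma adjusted p = 0.00358). The partner Mir15a had 1 peak, also in Dleu2, which was not called (2736 ± 234 and 2842 ± 262). Mir99b starts the cluster that also holds let-7e and miR-125a, and the peak 2872 bp upstream of it fell from 1005 ± 160.3 to 685 ± 128 with no overlap (limma adjusted p = 0.00773). The peak near Mir26b (4523 ± 260.2 and 3752 ± 186, limma adjusted p = 0.0187) lost its call without wildtype library 2 or 3 or Rroid-deficient library 4 or 6, with adjusted p of 0.0623 to 0.0901.

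Accessibility was higher around Mir146, which encodes miR-146a, a feedback inhibitor of NF-kB signalling that represses Traf6 and Irak1. Of its 5 intergenic peaks 4 were higher. The peak chr11:43208507-43209442, 21011 bp upstream, held 206, 162 and 165 in wildtype and 411, 421 and 550.1 in Rroid-deficient libraries. All 3 Rroid-deficient libraries were higher than every wildtype library. The means were 178 ± 24.3 and 461 ± 77.6, 2.59-fold higher (log2 fold change 1.37, SE 0.16, limma adjusted p = 8.1e-06). On the other side, 15612 bp downstream, the values were 358, 333 and 346 against 568, 606 and 677. These groups did not overlap either (345 ± 12.6 and 617 ± 55.5, limma adjusted p = 8.45e-05). The peak 13923 bp upstream rose 2.13-fold from 80.3 ± 8.39 to 171 ± 4.54 (limma adjusted p = 0.000429). The tallest, 10916 bp upstream, held 850.4 ± 39.5 and 1066 ± 56.7 (limma adjusted p = 0.0240), and its adjusted p was 0.0522 to 0.0815 without wildtype library 2 or 3 or Rroid-deficient library 4 or 5.

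Mir21a encodes a microRNA induced on lymphocyte activation and lies next to Vmp1, whose introns hold most of its peaks. Of 9 peaks 4 were higher, and without Rroid-deficient library 5 there were 3 higher and 1 lower. The peak in intron 7 of Vmp1, 37235 bp upstream, held 49.0, 66.4 and 28.3 in wildtype and 119, 148 and 159.6 in Rroid-deficient libraries. All 3 Rroid-deficient values exceeded the wildtype ones (47.9 ± 19.0 and 142 ± 20.7, 2.97-fold, log2 fold change 1.62, SE 0.28, limma adjusted p = 0.000393). The peak 2625 bp downstream rose from 1347 ± 219.6 to 1938 ± 265 (limma adjusted p = 0.00354) and that 7445 bp upstream from 247 ± 44.5 to 416 ± 82.3 (limma adjusted p = 0.00305), both without overlap. The peak 14925 bp upstream (113 ± 27.6 and 174 ± 21.3, limma adjusted p = 0.0309) was at 0.0649 to 0.148 without wildtype library 3 or Rroid-deficient library 4 or 5. The tallest peak, 2859 bp upstream, overlapped between the groups, at 4505 ± 452 and 4299 ± 589.8 (limma adjusted p = 0.638).

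Mir148a, whose product is raised in repeatedly activated T helper cells, had the largest rise among the immune microRNAs. The peak chr6:51049697-51050650, 169736 bp downstream of the start site and intergenic, held 175, 118 and 115 in wildtype and 723, 667 and 572 in Rroid-deficient libraries. The Rroid-deficient libraries were all more than 3 times as high as any wildtype library. The mean went from 136 ± 33.3 to 654 ± 76.3, 4.81-fold (log2 fold change 2.28, SE 0.17, limma adjusted p = 6.65e-08). Close to the gene, 1075 bp upstream, the values were 173, 121 and 126 against 264, 299.9 and 213. Here too the groups were apart (139.9 ± 28.5 and 259 ± 43.8, limma adjusted p = 0.00197). The peak 91351 bp downstream went the other way, from 629.9 ± 22.0 to 425 ± 99.8 (limma adjusted p = 0.00612), and was at 0.0508 without Rroid-deficient library 6. The low peak 175385 bp downstream (36.5 ± 9.25 and 66.4 ± 15.8, limma adjusted p = 0.0478) lost its call without wildtype library 2 or 3 or Rroid-deficient library 5 or 6, at 0.0834 to 0.200.

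Mir181a-1 and Mir181b-1 on chromosome 1, near Ptprc, encode miR-181 forms that tune antigen receptor and Notch signalling in lymphocyte development. Of their 8 peaks 3 were higher and none was lower. The peak chr1:139702772-139703943, 159675 bp upstream, held 188, 176 and 212 in wildtype and 418, 350.3 and 405 in Rroid-deficient libraries. The groups were separated (192 ± 18.5 and 391 ± 35.8, 2.04-fold, log2 fold change 1.02, SE 0.15, limma adjusted p = 6.45e-05). At 95106 bp downstream of Mir181b-1 the peak rose 2.03-fold, from 75.8 ± 1.45 to 154 ± 19.9 (limma adjusted p = 0.00124). Its neighbour 93290 bp downstream (49.3 ± 12.8 and 89.6 ± 12.2, limma adjusted p = 0.0203) was at 0.0506 to 0.0644 without wildtype library 1 or 3 or Rroid-deficient library 4 or 5. The 5 peaks nearest to Mir181a-2, Mir181b-2 and Mir181c, which share the seed, were not called.

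**Figure D3:**
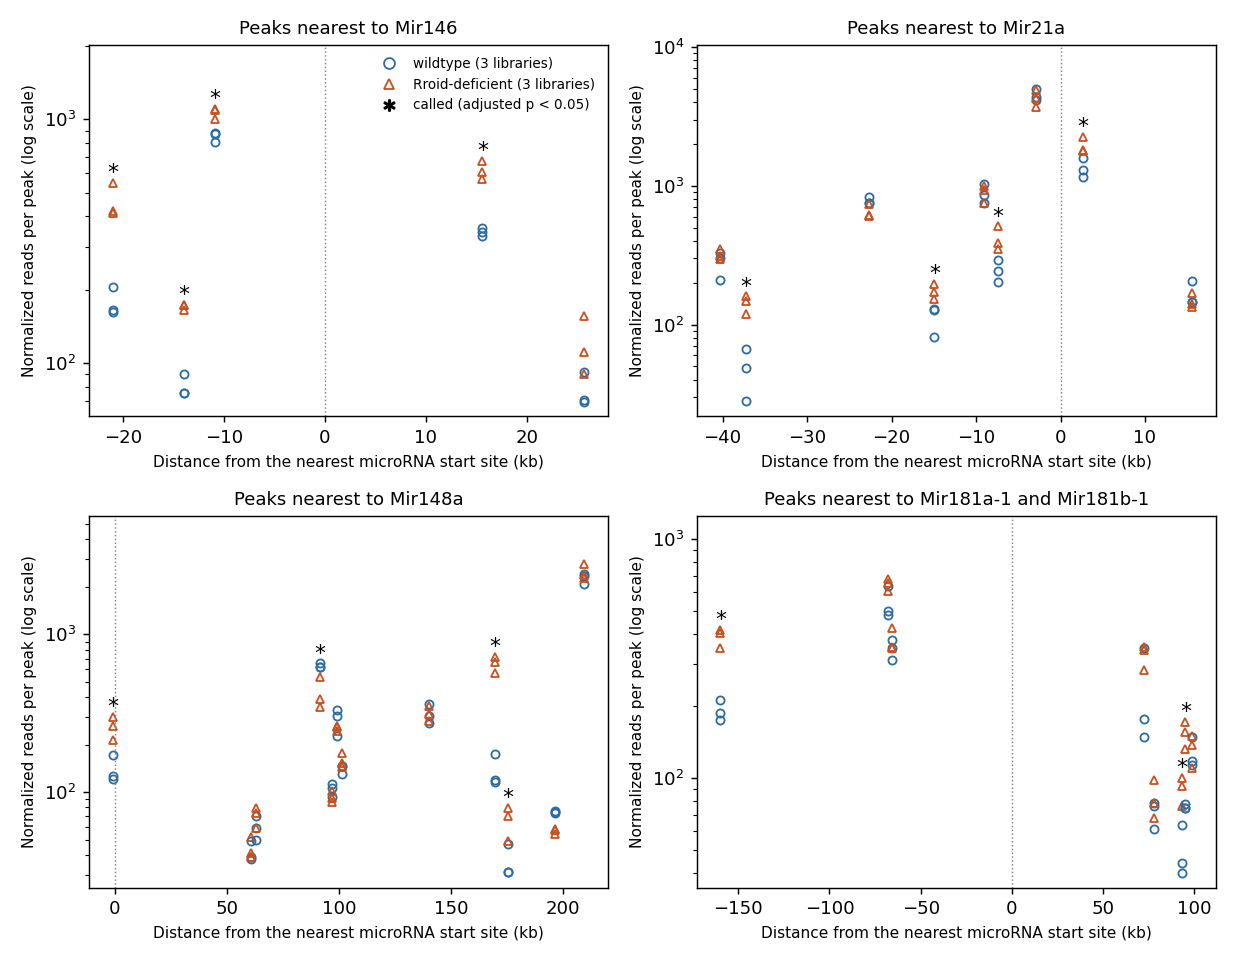
Normalized reads per peak (log axis) against distance from the nearest microRNA start site in kb at 4 loci, each symbol 1 library and a star over each called peak. At Mir148a the peak 169736 bp downstream holds 115 to 175 in wildtype and 572 to 723 in Rroid-deficient libraries, and the peak 91351 bp downstream is lower.

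Mir150 encodes a repressor of Myb that promotes NK cell maturation. Its promoter peak overlapped between the groups (1379 ± 164 and 1438 ± 109.8, limma adjusted p = 0.690). The peak 7181 bp upstream held 176, 134 and 126 in wildtype and 220.1, 290.3 and 219 in Rroid-deficient libraries. The Rroid-deficient libraries were all higher (145 ± 27.1 and 243 ± 40.9, limma adjusted p = 0.00634). Near Mir31, the peak 27681 bp upstream held 152, 119 and 129 against 328, 298 and 267. The groups were well apart (133 ± 17.0 and 298 ± 30.2, 2.23-fold, limma adjusted p = 6.46e-05), while the peak 769 bp from the start site was not called (65.6 ± 26.1 and 67.5 ± 8.16). Mir222, whose product represses the cell cycle inhibitor p27, had 1 lower peak of 5 (481 ± 58.1 and 349 ± 7.47, limma adjusted p = 0.0158, and 0.0791 without wildtype library 3). Its higher peak, 369906 bp upstream (29.9 ± 6.24 and 62.0 ± 13.4, limma adjusted p = 0.0217), was lost at 0.0559 to 0.0952 without wildtype library 1 or 2 or Rroid-deficient library 4 or 6.

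Several well-known immune microRNAs had strong peaks that were not called. Mir155, which supports NK cell expansion by repressing Socs1 and Ship1, held 367, 437 and 513 in wildtype and 504, 450.3 and 487 in Rroid-deficient libraries at its promoter. The groups overlapped (439 ± 73.0 and 480.5 ± 27.5, log2 fold change 0.14, SE 0.14, limma adjusted p = 0.479). The peak near Mir142, a microRNA found throughout blood cells, stood at 8204 ± 802 and 8200.1 ± 852 (log2 fold change -0.00, SE 0.09, limma adjusted p = 0.994). The peak 2310 bp upstream of Mir17, the first member of the miR-17 to miR-92 cluster that drives proliferation, stood at 3915 ± 142 and 4198 ± 194 (limma adjusted p = 0.366). Near Mir23a, start of the cluster with miR-24 and miR-27, the peak 5964 bp upstream stood at 8563 ± 854 and 9410.2 ± 544 (limma adjusted p = 0.218). Mir210, a hypoxia-induced microRNA (1939 ± 87.7 and 1789 ± 136), and Mir212 (2232 ± 246 and 2319.9 ± 369) overlapped at their promoters. The peak 10381 bp upstream of Mir155 held 1726, 1919 and 2256 against 1725, 1633 and 1655 and was not called although the groups did not overlap (limma adjusted p = 0.108). A missed call does not show that these peaks are equal.

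The 1645 peaks fell into 498 loci when start sites within 50 kb of each other were joined. No peak was called at 283 loci and 1 peak at 131. Of the 84 loci with 2 or more called peaks, 29 had only higher, 26 only lower and 29 both kinds. The single direction was not stable at every locus. When 1 library was left out, an opposite call appeared at Mir21a, Mir6368, Mir6979, the Mir6973a cluster, Mir1907 and the Mir7094 pair. Without Rroid-deficient libraries 4 and 6 there were 18 loci with only higher calls. Peaks of other genes were not grouped in this way. The locus counts therefore have no background beside them and are no result about microRNA loci. Of the 1645 peaks 879 were annotated inside another gene, so the name of a locus can stand for a part of that gene.

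**Figure D4:**
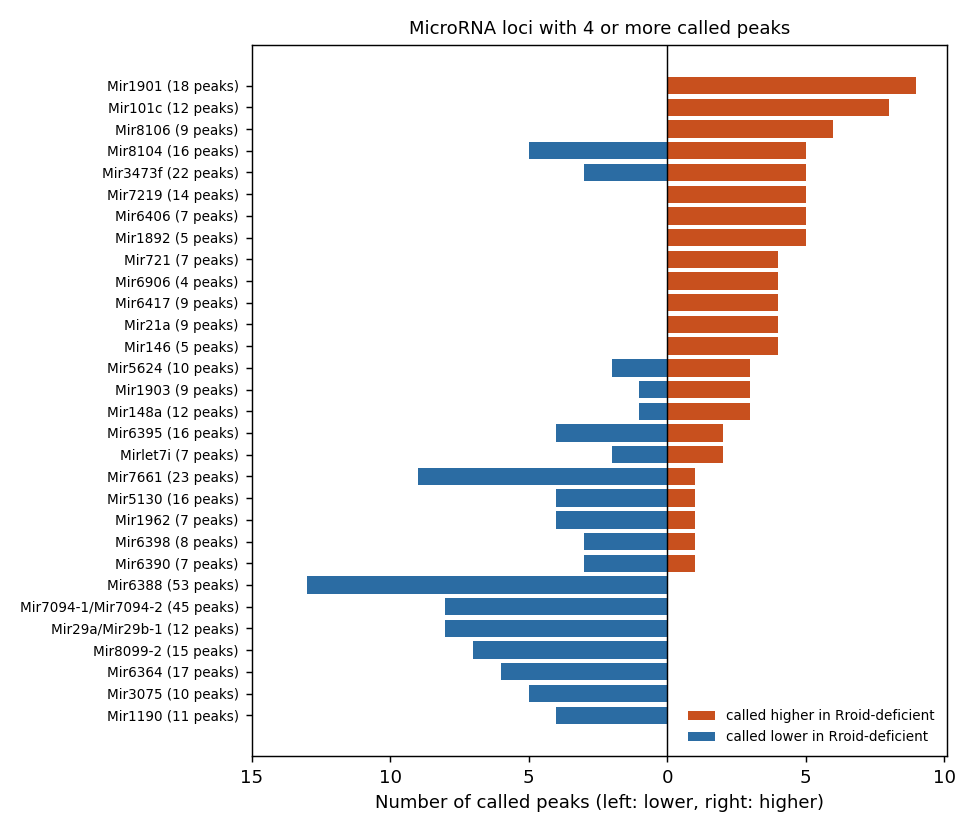
Number of called peaks at the 30 microRNA loci with 4 or more called peaks, with higher calls drawn to the right and lower calls to the left of 0. Mir6388 has the most lower calls, 13 of 53 peaks, and Mir1901 the most higher calls, 9 of 18.

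Among the loci with higher calls only, Mir1901 in Cables1 had 9 higher peaks of 18. Cables1 encodes a regulator of cyclin-dependent kinases. Its peak at chr18:12071629-12072957, in intron 4, held 549, 679.7 and 583 in wildtype and 1903, 2109 and 1898 in Rroid-deficient libraries. All Rroid-deficient libraries were far above the wildtype ones (604 ± 68.0 and 1969.9 ± 120.1, 3.26-fold, log2 fold change 1.71, SE 0.11, limma adjusted p = 1.17e-08). The locus had 6 higher peaks without Rroid-deficient library 6. Mir8106, in intron 11 of Ano10, had 6 higher peaks of 9, the strongest of which held 364, 326 and 304 against 748, 853 and 749.6. That peak was 2.36-fold higher with no overlap (331 ± 30.6 and 783 ± 60.2, limma adjusted p = 1.39e-06). Mir1892, between peaks nearest to Gm7550 and Sptssa on chromosome 12, had all of its 5 peaks higher, from 1.82-fold to 8.05-fold. That locus had 4 higher peaks with loess scaling, and 4 without wildtype library 2 or 3 or Rroid-deficient library 4 or 6. The 8.05-fold peak was low, at 10.7, 10.1 and 6.84 in wildtype and 75.6, 57.1 and 89.5 in Rroid-deficient libraries.

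Mir6406, in Stx8 and Ntn1, had 5 higher peaks of 7, and 4 without wildtype library 3 or Rroid-deficient library 5 or 6. The peak at the 3′ end of Stx8, a gene of vesicle fusion, held 1134, 1059 and 791 in wildtype and 1875, 2361 and 2039.6 in Rroid-deficient libraries. It was 2.1-fold higher without overlap (995 ± 180.3 and 2092 ± 247, limma adjusted p = 8.15e-06). Mir7219 in Ldlrad4 had 5 higher peaks of 14 (3 without Rroid-deficient library 6), Mir6417 near Dhx15 4 of 9, and Mir721 in Cux1 4 of 7. At Mir6417, 2 of the 4 calls were lost without Rroid-deficient library 4, and at Mir721 2 of the 4 were lost without wildtype library 2 or 3 or Rroid-deficient library 4 or 6. At Mir7001, in introns of the tetraspanin gene Cd82, 3 of 7 peaks were higher, and the peak 5884 bp upstream rose from 687 ± 52.2 to 1229.7 ± 112 (limma adjusted p = 2.45e-05). At Mir200b, known from epithelial cells, 2 of 4 peaks were higher, and the peak 21825 bp upstream rose from 822 ± 45.8 to 1242 ± 134 (limma adjusted p = 0.000560). Mir146, Mir21a, the pair Mir181a-1 and Mir181b-1, Mir101c, Mir6906 and Mir7058 also had higher calls only. The remaining such loci, with 2 or 3 calls each, were Mir5104, Mir6368, Mir6541, Mir7117, Mir6367, Mir6979, Mir1258, Mir6995, Mir7674, Mir1953, Mir6403, Mir5625, Mir6374 and the cluster of Mir6973a, Mir6974, Mir6975 and Mir8094. No call was left at Mir1953 without wildtype library 2 or Rroid-deficient library 4, or at Mir6995 without wildtype library 3. A single call was left at Mir7117 without Rroid-deficient library 4, at Mir6367 without wildtype library 3, at Mir6403 without wildtype library 3 or Rroid-deficient library 5 or 6, and at Mir5104 without wildtype library 2 or 3 or Rroid-deficient library 4 or 6. The same held at Mir5625 for every library but Rroid-deficient library 5, and at Mir6374 for every library but wildtype library 1.

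Among the loci with lower calls only, Mir3075 in Zmiz1 had 5 lower peaks of 10. Zmiz1 encodes a transcriptional coactivator that works with Notch1 in T cells. Its peak 11866 bp upstream held 1006, 929 and 874 in wildtype and 511, 599.7 and 526 in Rroid-deficient libraries. The Rroid-deficient libraries were all lower (937 ± 66.3 and 545 ± 47.7, log2 fold change -0.78, SE 0.11, limma adjusted p = 6.96e-05). The locus had 3 lower peaks without wildtype library 2 or Rroid-deficient library 4 or 6. Mir6364 in Prex1, which encodes an activator of Rac, had 6 lower peaks of 17, and the peak 25203 bp upstream held 487, 639 and 515 against 301, 342 and 291. That peak had no overlap (547 ± 80.6 and 311 ± 26.7, limma adjusted p = 0.000349). Mir1190 in Ccdc88c had 4 lower peaks of 11, with the peak 35868 bp downstream at 1429 ± 42.4 and 902 ± 96.4 (limma adjusted p = 0.000137).

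Mir8099-2 lies in a gene-poor stretch of chromosome 12 and had 7 lower peaks of 15, 377123 to 1015176 bp upstream of its start site. The tallest held 836, 1070.3 and 1346 in wildtype and 586, 576 and 655 in Rroid-deficient libraries. Wildtype library 3 was the highest and the groups did not overlap (1084 ± 255 and 606 ± 43.2, limma adjusted p = 0.000400). The locus had 4 lower peaks without wildtype library 3. At Mir3066, in Nol10, 3 of 8 peaks were lower, at 49.5 to 65.9% of wildtype. At Mir7056, in and beside Ptpn5, 3 of 4 were lower, at 41.0 to 56.5%. All of these 6 peaks kept their call without any 1 library. Mir6950, in Loxl2, had all of its 3 peaks lower, but 2 low ones lost their call without wildtype library 1 or 2 or Rroid-deficient library 5 or 6 (adjusted p 0.0511 to 0.103). Its peak in intron 10 held 224, 263 and 259 against 49.1, 40.9 and 71.3. No Rroid-deficient library came near the wildtype range (249 ± 21.2 and 53.8 ± 15.7, 21.6% of wildtype, log2 fold change -2.22, SE 0.22, limma adjusted p = 1.44e-06). The other loci with lower calls only were Mir7663, Mir7662, Mir1191b, Mir1931, Mir6539, Mir1907, Mir692-1, Mir122, Mir6356, Mir6359, Mir6337, Mir7057, Mir6401, Mir7656, the pair Mir135a-1 and Mirlet7g, Mir29a with Mir29b-1, Mir129-1, Mir6388 and the Mir7094 pair. No call was left without wildtype library 2 at Mir7662, Mir1191b, Mir1931 and Mir6359, and the same held for wildtype library 3 and Rroid-deficient library 6 at Mir7662, Mir1191b and Mir6359, for Rroid-deficient library 4 at Mir1191b and Mir1931 and for Rroid-deficient library 5 at Mir6359. A single call was left at Mir6337 without wildtype library 3, at Mir692-1 without wildtype library 1 or 3, at Mir6401 without Rroid-deficient library 6, at Mir6539 without wildtype library 2 or Rroid-deficient library 6, and at Mir122 without Rroid-deficient library 4. The same held for wildtype library 2 or Rroid-deficient library 6 at Mir7057, Mir6356 and Mir7663, and besides for Rroid-deficient library 4 at Mir7057 and Mir6356, wildtype library 1 at Mir6356 and wildtype library 3 at Mir7663. At the pair Mir135a-1 and Mirlet7g it held for wildtype library 2 or Rroid-deficient library 4 or 5.

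Several loci had calls in both directions, some within the same gene. In Ppm1h, which encodes a protein phosphatase, Mir8104 had 5 higher and 5 lower peaks of 16. The peak 79160 bp downstream held 179.9, 179.8 and 144 in wildtype and 698, 724 and 620.2 in Rroid-deficient libraries. It was 4.06-fold higher (168 ± 20.9 and 681 ± 54.1, log2 fold change 2.02, SE 0.14, limma adjusted p = 3.58e-08). The peak 138615 bp downstream held 780.0, 585 and 609 against 214, 229 and 237. It stood at 34.5% of wildtype (658 ± 107 and 227 ± 12, log2 fold change -1.52, SE 0.14, limma adjusted p = 6.02e-07). Neither peak overlapped between the groups. The higher peaks lay 47896 to 98075 bp downstream of the start site, all in intron 1, and the lower peaks 57742 to 138615 bp, in introns 1 to 4. The locus had 3 higher and 4 lower peaks without wildtype library 2 or 3 or Rroid-deficient library 4 or 6.

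In Itpr1, the gene of a calcium release channel, Mir7661 had 9 lower peaks and 1 higher peak of 23. The peak 35258 bp upstream held 483, 508 and 499 in wildtype and 147, 129 and 91.9 in Rroid-deficient libraries. The wildtype libraries were close together and the groups far apart (497 ± 13.0 and 123 ± 28.1, 24.7% of wildtype, log2 fold change -2.04, SE 0.17, limma adjusted p = 2.47e-07). The peak 12484 bp upstream fell from 874 ± 68.6 to 362 ± 35.7 (limma adjusted p = 9.77e-07). The lower calls numbered 7 to 9 when any 1 library was left out. The higher peak (82.6 ± 9.99 and 133 ± 16.0, limma adjusted p = 0.0211) was at 0.0504 to 0.0789 without wildtype library 3 or Rroid-deficient library 4 or 5.

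Mir1962 in Ptpre, a receptor-type phosphatase gene, had 4 lower peaks and 1 higher peak of 7. The peak 39210 bp downstream held 971, 926 and 938 against 468, 586 and 491. It was lower in every Rroid-deficient library (945 ± 23.2 and 515 ± 62.8, limma adjusted p = 2.59e-05), while the peak 7830 bp upstream rose from 61.6 ± 9.26 to 142 ± 18.1 (limma adjusted p = 0.000627). In Bcl2, the survival gene, and beside it, Mir3473f had 5 higher and 3 lower peaks of 22, and 3 higher peaks without wildtype library 2. The peak 69140 bp upstream held 520.0, 403 and 655 against 241, 303 and 282. The groups were apart (526 ± 126 and 275 ± 31.2, limma adjusted p = 0.000548). The peak 15916 bp upstream rose from 502 ± 21.9 to 719.8 ± 63.5 (limma adjusted p = 0.00296). At Mir7683, in intron 6 of Slamf7, an activating NK receptor gene, the peak rose 2.52-fold from 131 ± 22.0 to 329.7 ± 16.9 (limma adjusted p = 1.58e-05). The lower peak of Mir7683, 12755 bp downstream (3115 ± 185 and 2638 ± 181, limma adjusted p = 0.0469), lost its call under loess, total reads and DESeq2 size factors, by DESeq2, and without any 1 library but Rroid-deficient library 5, with adjusted p of 0.0522 to 0.193. Mir5618 in Tmem123 had 2 higher peaks, and its peak 6406 bp downstream was at 36.5% of wildtype (254 ± 52.2 and 92.8 ± 17.4, limma adjusted p = 4.5e-05). Mir1936 in Itpk1 had 2 higher peaks and 1 at 37.6% (713 ± 93.8 and 268 ± 50.9, limma adjusted p = 3.51e-06). In Macf1, Mir6398 had 1 peak at 2.88-fold (371 ± 59.3 and 1067 ± 122, limma adjusted p = 3.65e-07) beside 3 lower ones, 2 of which lost their call without at least 1 library.

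The largest fold change in either direction among the 1645 peaks was a near loss at chr6:28877973-28879963, an intergenic peak 93651 bp upstream of Mir129-1, a microRNA known from the brain. It held 1036, 876 and 768 in wildtype and 13.3, 7.62 and 20.6 in Rroid-deficient libraries. The wildtype libraries had a peak of good height and the Rroid-deficient libraries almost none. The mean fell from 893 ± 135 to 13.8 ± 6.49, 1.55% of wildtype (log2 fold change -6.00, SE 0.27, limma adjusted p = 3.83e-10). The neighbouring peak 90653 bp upstream held 219, 187 and 111 against 29.2, 17.1 and 35.1. It was lower without overlap (173 ± 55.3 and 27.1 ± 9.14, 15.7%, limma adjusted p = 9.03e-06). The peak 1286 bp from the Mir129-1 start site was not called (106 ± 15.5 and 150.1 ± 15.0, limma adjusted p = 0.0663), nor was that 73218 bp upstream (55.1 ± 9.24 and 49.8 ± 9.35). The next peaks on either side of the locus were nearest to Lrrc4 and Rbm28. The fall covered 2 adjacent peaks far from the microRNA and no peak nearer to it.

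In the other direction, chr10:59623542-59625784, 35139 bp downstream of Mir6906, held 116, 57.1 and 35.2 in wildtype and 519.8, 427 and 542 in Rroid-deficient libraries. The rise was 7.16-fold without overlap (69.3 ± 41.7 and 496 ± 60.6, log2 fold change 2.98, SE 0.29, limma adjusted p = 1.14e-06). All 4 peaks of Mir6906 were higher, and 2 of them, at its promoter and 21566 bp downstream, lost their call without 1 library (adjusted p 0.0511 to 0.155 without wildtype library 1 or 2 or Rroid-deficient library 4 or 6). The next peaks beyond the locus were nearest to Spock2 and Chst3. On chromosome 7, chr7:133482981-133484317, 27910 bp downstream of Mir7058, held 97.1, 56.3 and 75.2 against 570.2, 617 and 597. It was 7.81-fold higher (76.2 ± 20.4 and 595 ± 23.4, log2 fold change 2.98, SE 0.18, limma adjusted p = 1.16e-08). The next peaks beyond that locus were nearest to Sbk1 and Lat, the latter a signalling adaptor of T and NK cells. Further single peaks rose at Mir6376 in Rpn1 (329 ± 37.5 and 1148 ± 187, 3.49-fold), Mir6516 (127 ± 49.9 and 412 ± 103, 3.26-fold) and Mir3968 (204 ± 39.8 and 625 ± 116, 3.06-fold), with limma adjusted p of 6.61e-08, 2.9e-05 and 2.2e-06. The largest rises on the log2 scale were at low peaks, chosen for mention after their values were seen. Mir684-1 (7.12, 5.88 and 3.91 against 92.8, 97.1 and 104, log2 fold change 3.93) and Mir3971 (32.9, 40.3 and 21.5 against 306, 406 and 279, log2 fold change 3.37) each had 1 such peak without overlap.

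Mir6388, Mir7094-1 and Mir7094-2 lie among variable segments of the immunoglobulin heavy-chain locus on chromosome 12. In RefSeq, 6 of 10 neighbouring genes of Mir6388 and all 10 of each Mir7094 gene were Ighv segments. They were the nearest genes of 98 peaks, of which 21 were lower (21.4%, against 12.1% of all peaks) and none was higher (against 13.8%), and 86 of the 98 log2 fold changes were negative. Summed over the 98 peaks, the wildtype libraries held 18811, 18269 and 20598 and the Rroid-deficient libraries 15676, 14702 and 15850.1. The Rroid-deficient sums were all lower. The peak nearest to a start site, 3781 bp downstream of Mir6388 (chr12:116929694-116930755), held 419, 401 and 429.8 against 264, 247 and 251. It was lower without overlap (417 ± 14.7 and 254 ± 8.94, limma adjusted p = 0.000648). The count depended on the libraries. Mir6388 had 13 lower calls, but 5 without wildtype library 2, 4 without wildtype library 3, 7 without Rroid-deficient library 4 and 7 with scaling to total reads in peaks. The Mir7094 pair had 8, but 3, 4 and 4 without wildtype library 2, wildtype library 3 and Rroid-deficient library 5, and 4 with total reads. Of the B cell markers, Cd22, Cd79b and Ebf1 had start-site peaks, none of them called, and their part in this result was not tested. Without these 98 peaks, 223 of 1547 microRNA peaks were higher and 192 lower.

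Mir101c lies at the end of chromosome 9 in satellite repeats, which covered 11 of its 12 peaks. Of the 12 peaks 8 were called higher, but the groups overlapped at all 12. Over all genes, 25 of 50 satellite peaks were called higher (50%) and none lower. Summed over the peaks, the wildtype libraries held 28328, 24443 and 33610 and the Rroid-deficient libraries 53507, 28953 and 48736. Rroid-deficient libraries 4 and 6 lay above every wildtype library at all 12 peaks, and library 5 lay at or under the highest wildtype library at all 12. Only 2 peaks were called without wildtype library 2, Rroid-deficient library 4 or Rroid-deficient library 6, 12 without Rroid-deficient library 5, none without libraries 4 and 6, and 1 by DESeq2. The higher values were thus those of libraries 4 and 6.

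**Figure D5:**
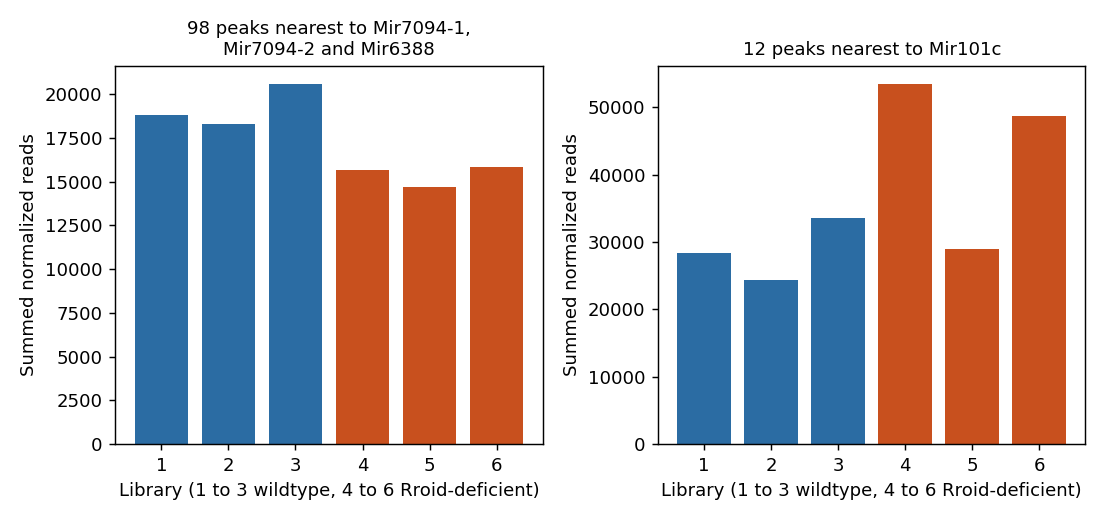
Summed normalized reads per library over the 98 peaks nearest to Mir6388 and the Mir7094 pair (left) and over the 12 peaks nearest to Mir101c (right), with wildtype libraries 1 to 3 in blue and Rroid-deficient libraries 4 to 6 in orange. All Rroid-deficient bars are lower on the left, while on the right library 5 (28953) stands within the wildtype range of 24443 to 33610.

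Most microRNA peaks were distal. Of the 1645, 123 lay within 1 kb of the start site, 407 at 1 to 10 kb, 865 at 10 to 100 kb and 250 beyond 100 kb. Within 1 kb, 14 were higher (11.4%) and 10 lower (8.13%), against 10.4% and 8.73% of all peaks at that distance. Beyond 100 kb, 19 were higher (7.60%) and 46 lower (18.4%), against 15.0% and 16.8% of all such peaks. Leaving out Mir6388 and the Mir7094 pair, 19 of 174 were higher (10.9%) and 32 lower (18.4%). By annotation 800 peaks were intronic and 636 intergenic, and of 79 promoter peaks 10 were higher and 10 lower (12.7% each, against 9.94% and 8.80% of all promoter peaks).

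Of the 24 called start-site peaks 13 kept their call without any 1 library, and the peaks named here were chosen after their values were seen. At Mir672 the promoter peak held 127, 79.8 and 83.0 in wildtype and 22.5, 18.1 and 35.1 in Rroid-deficient libraries. The groups were apart, at 26.1% of wildtype (96.7 ± 26.6 and 25.2 ± 8.8, limma adjusted p = 0.000252). Mir6974, in the gene-dense histocompatibility region of chromosome 17, held 528, 646 and 439 against 896, 1137 and 868. Its promoter peak was 1.8-fold higher with no overlap (538 ± 104 and 967 ± 148, limma adjusted p = 0.000274). Mir124a-3, a locus of the brain microRNA miR-124, rose from 117 ± 41 to 233 ± 33.7 without overlap (limma adjusted p = 0.00236). At Mir203, known from skin, the promoter peak held 153, 111 and 73.3 against 200.2, 212 and 170.5. It did not overlap (112 ± 40 and 194 ± 21.5, limma adjusted p = 0.0121), but its adjusted p was 0.0632 without wildtype library 3. The other start-site peaks that kept their call, beside Mirlet7g, were Mir1957b at 2.08-fold, Mir5618 at 1.89-fold, Mir1905 at 1.66-fold, Mir6973a at 1.58-fold and Mir7654 at 1.24-fold of wildtype, and Mir7228, Mir697, Mir3081 and Mir7115 at 65.2 to 70.1% of wildtype.

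Genes that make or use microRNAs were read from a list of 30 names, of which 22 had peaks. Several names are synonyms of the same gene, so a name without peaks need not be a gene without peaks. Of their 57 peaks 13 were higher (22.8%) and 4 lower (7.02%), against 13.8% and 12.1% of all peaks. Their wildtype median was 710, against 150 over the microRNA peaks, and the shares are not matched for height. Ago2, which carries the mature microRNA, had 6 higher peaks and 1 lower peak of 10, and the called peaks lay in its introns. Its peak 8606 bp downstream of the start site held 542, 591 and 475 in wildtype and 1018, 1032 and 889 in Rroid-deficient libraries. The groups were clearly apart (536 ± 58.2 and 979.7 ± 79.1, 1.83-fold, limma adjusted p = 3.4e-05). Tnrc6b, the Argonaute partner that recruits deadenylases, had 3 higher peaks of 10. Its peak 32124 bp downstream held 196, 198 and 79.1 against 591, 723 and 578. That peak was 4.0-fold higher (158 ± 68.1 and 631 ± 79.9, log2 fold change 2.1, SE 0.25, limma adjusted p = 1.15e-05). The peak nearest the start site was not called at Ago2 (3906 ± 303 and 3978 ± 237, limma adjusted p = 0.843). Nor was that of Tnrc6b (6498 ± 895 and 6500 ± 840, limma adjusted p = 0.995).

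Ddx6, a helicase of translational repression, had 2 higher peaks of 4, both intergenic, 22763 and 25325 bp upstream. Its promoter peak was not called (2438 ± 321 and 2452 ± 402, limma adjusted p = 0.984). The stronger of the higher peaks held 306, 330.2 and 211 in wildtype and 833, 939.6 and 800.4 in Rroid-deficient libraries. It was 3.04-fold higher without overlap (282 ± 63.1 and 858 ± 72.8, limma adjusted p = 8.55e-07). Drosha itself had 1 higher peak of 2, in intron 5 (94.4 ± 1.70 and 167 ± 21.8, limma adjusted p = 0.00395), and Lin28b 1 intergenic peak, also higher (199 ± 35.2 and 367 ± 15.8, limma adjusted p = 0.000441). Lower calls were found near Lin28a (1049 ± 142 and 658 ± 143, limma adjusted p = 0.00191) and at the promoters of the Drosha-associated helicases Ddx5 (12102 ± 1332 and 9879 ± 1255, limma adjusted p = 0.0270) and Ddx17 (4811 ± 567 and 3865 ± 581, limma adjusted p = 0.0335), both with overlapping groups. The lower count of 4 became 2 without wildtype library 1, 1 without wildtype library 2 or Rroid-deficient library 4 or 6, and 0 without libraries 4 and 6. Dicer1, Dgcr8, Xpo5, Ago1, Ago3, Ago4, Tarbp2 and Prkra had 1 peak each, none of them called.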

How the data were processed

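The deposited table gave 51775 consensus peaks with a normalized signal value per peak and library and, per the file headers, HOMER's nearest gene and its distance. Multiplied by a factor found for each library, 100% of the deposited signal values came out as whole reads (tolerance 0.01). The submitters' processing notes name mm9, HOMER, R 3.1.1 with DiffBind, MACS2 2.1.0, BWA, bcl2fastq 2.16.0 and Trimmomatic 0.32. They give no transposase shift or duplicate removal in the part used here. Counting error is largest at low peaks.

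Because the unit was a normalized signal, the test was limma 3.58.1 with a trend on log2(value + 1), fitted on all peaks. Fold changes on that scale understate changes of low peaks. The test was tried on simulated data, with 200 changed peaks of 51775, and found 100% of the 4-fold, 85.1% of the 2-fold and 23.9% of the 1.5-fold changes. It made 6 false calls. The simulation gave all peaks the same dispersion, taken from the wildtype libraries. It also changed far fewer peaks than the 25.8% called in the data, so these shares need not hold for the data. Other settings tried were pseudocounts of 0.5 and 5, scaling by loess, by total reads in peaks or by DESeq2 size factors, only the upper part of peaks by mean value, edgeR 4.0.16 and DESeq2 1.42.0 on the recovered reads, an adjusted p under 0.01, other distances, and leaving out libraries. Columns ending in 4 to 6 match no sample title, so libraries were used as replicates of a genotype without pairing.

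Members and lists were chosen with earlier results of these data known. Named peaks were every called peak of an immune or let-7 microRNA, the peak nearest the start site of those without a call, the 10 most raised and 10 most lowered of the called, non-overlapping members at or above the median level (at most 1 per gene), the loci with 2 or more calls in 1 direction or calls in both, and the called peak with the smallest p of each processing gene. Sequences are RefSeq's (GRCm38.p6 table).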

Additional observations from a re-analysis of the deposited data

How the results depend on the processing

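No paired analysis was possible because the Rroid-deficient columns carry no number of a sample title. The main counts were 223 higher and 213 lower peaks, 29 and 26 loci, 17 and 15 immune microRNA peaks and 13 and 4 peaks of processing genes. With only the upper part of peaks tested, 110 peaks, 13 loci and 8 immune peaks were higher and 147, 19 and 12 lower. Scaling to total reads in peaks gave 256 higher and 169 lower peaks and 35 and 19 loci. At an adjusted p under 0.01 there were 128 higher and 112 lower peaks, 14 lower loci, 9 lower immune peaks and 1 lower processing peak. Within 10 kb of a start site 73 peaks were higher and 50 lower. With loess, 2 processing peaks were lower. Without Rroid-deficient libraries 4 and 6 together, chosen after seeing the data and assuming that the lone library varies like the others, 111 peaks and 18 loci were higher, and 131 peaks, 6 immune peaks and 0 processing peaks were lower, with the Mir101c peak 20493 bp downstream reversed at -0.043 on the log2 scale (adjusted p = 0.902). Leaving out 1 library gave 163 to 240 higher and 139 to 212 lower peaks, 24 to 37 higher and 18 to 31 lower loci, 13 to 17 higher and 11 to 14 lower immune peaks, and 10 to 14 higher and 1 to 5 lower processing peaks. The cause of these shifts was not tested, except that fewer peaks or samples enter several settings. edgeR called 219 higher and 217 lower peaks and DESeq2 208 and 213, sharing 428 and 411 calls with limma. Of 326 named called peaks, 151 kept their call under every alternative but the stricter limit, and 135 lost it without at least 1 library. Depth limits the low peaks most.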
